A study of Mus musculus with 10 samples.

Results

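Transcripts of 10 genes of lipoprotein assembly were examined in mouse liver: the apolipoprotein genes Apoa1, Apoa2, Apoa4, Apoa5, Apob, Apoc1, Apoc2, Apoc3 and Apoe, and Mttp, the gene of the microsomal triglyceride transfer protein. They were taken by symbol from the 24421 genes listed, and all 10 passed the filter on low counts that left 11092 genes for testing. Poly(A) RNA was sequenced from the livers of 10 male wild-type C57BL/6 mice (C57BL/6J in the methods of the study), 21 weeks old by the labels, 1 library per mouse. Standard chow was given to the 5 mice of the Chow group. For the 5 mice of the TM5614 group the chow contained TM5614, so that each received 20 mg/kg/day over 10 days. This small molecule acts by mouth and inhibits plasminogen activator inhibitor-1 (PAI-1), the main brake on the enzymes that activate plasminogen. No mouse carried an engineered allele, and the drug reached the whole animal, not the liver alone. The comparison asks whether inhibition of PAI-1 was accompanied by a change in the hepatic transcripts that build plasma lipoproteins.

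The liver secretes triglyceride as very low density lipoprotein (VLDL). Each particle is built around a single apolipoprotein B, onto which the microsomal triglyceride transfer protein loads lipid while the chain enters the endoplasmic reticulum. Apolipoproteins A-I and A-II form the scaffold of high density lipoprotein (HDL), the C apolipoproteins and A-V set how fast lipoprotein lipase clears triglyceride, and apolipoprotein E is a ligand through which receptors remove remnants.

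The members lie at 5 places in the genome (assembly GRCm38, which mm10 names; GENCODE M21 annotation, all protein-coding). Apoa1 (chr9:46228580-46230466), Apoc3 (chr9:46232933-46235636), Apoa4 (chr9:46240696-46243459) and Apoa5 (chr9:46268633-46271919) share a stretch of 43340 bases on chromosome 9, with Apoc3 on the minus strand and the others on the plus strand. Apoe (chr7:19696109-19699188), Apoc1 (chr7:19689481-19692660) and Apoc2 (chr7:19671579-19677941) lie within 27610 bases on the minus strand of chromosome 7. Apob (chr12:7977648-8016835, plus strand), Apoa2 (chr1:171225054-171226379, plus strand) and Mttp (chr3:138089854-138144968, minus strand) stand alone. RefSeq promoter windows (assembly GRCm38.p6, 250 bases before to 50 after a transcript start) matched 8 members by symbol, all but Apoc1 and Apoc3. Those of Apoa5, the member of smallest p below, and of Apob, the structural protein of VLDL, are shown 5′ to 3′ on the plus strand (chr9:46268358-46268657 and chr12:7977427-7977726), with the match to TATAAA, the core of a TATA box, in capitals.
Apoa5: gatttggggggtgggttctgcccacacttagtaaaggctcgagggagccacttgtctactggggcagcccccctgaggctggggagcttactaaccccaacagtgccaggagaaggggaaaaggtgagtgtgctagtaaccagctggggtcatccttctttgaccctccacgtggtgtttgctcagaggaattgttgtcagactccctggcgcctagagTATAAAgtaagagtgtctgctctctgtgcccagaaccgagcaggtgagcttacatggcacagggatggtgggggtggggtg
Apob: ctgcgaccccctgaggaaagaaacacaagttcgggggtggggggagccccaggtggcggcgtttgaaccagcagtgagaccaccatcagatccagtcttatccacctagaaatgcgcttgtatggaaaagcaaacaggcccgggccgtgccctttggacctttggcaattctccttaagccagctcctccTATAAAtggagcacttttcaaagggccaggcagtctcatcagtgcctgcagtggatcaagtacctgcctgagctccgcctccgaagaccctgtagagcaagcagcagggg
In these windows TATAAA began 31 bases before the Apoa5 start and 60 bases before the Apob start. The annotation begins Apob at base 7977648, upstream of the transcript start used for its window, so the match is nearer to that base. A second Apoa5 window, whose start is the first base of the gene in the annotation, held the same match at 56 bases before that start. TATAAA was in 13.6% of the 32851 windows of the genome's table, counting both strands. The other 5 motifs were searched on both strands: CAAAGTCCA, a binding sequence of HNF4, AAAGGTCA, an extended nuclear receptor element, TAGGTCA, bound by REV-ERB receptors, TCACNCCAC, a sterol response element, and TTATGNAA, bound by PAR bZIP factors. They were in 0.475%, 1.51%, 2.61%, 1.24% and 3.38% of all windows. Among the 12 windows of the members the only match to any of these 5 was AAAGGTCA on the minus strand of an upstream Apoa2 window, 238 bases before its start, while TATAAA was also in the other Apoa2 window and in 1 of the 3 Apoe windows. AAAGGTCA and TAGGTCA share their last 6 bases but differ in the base before these, so the same AGGTCA cannot belong to matches of both. A match is a description of these letters only.

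The libraries held 6398335 to 10874955 counts. Hepatocyte markers (9 genes, among them Alb and Ttr) summed to 131255 to 139357 CPM (counts scaled by library size) in Chow and 114587 to 128826 CPM in TM5614, so the tissue was liver by its markers. These sums did not overlap between the groups: 8 of the 9 had a lower estimate in TM5614, with 0 called (edgeR adjusted p under 0.05) and a median log2 fold change of -0.28. A pair of libraries stood apart. In Chow replicate 2 a trend with GC content and transcript length accounted for 50.9% of the variance of its log2 deviations from the library median; in the other 9 libraries it accounted for 0.903% to 13.3%. TM5614 replicate 2 carried skeletal muscle transcripts, whose 12 markers summed to 4998 CPM against at most 88.7 CPM in any other library. Of the markers of other cells, Kupffer cell genes had a lower estimate in TM5614 in 12 of 12 with 0 called, and their sum ranged from 84.1 to 263 CPM in Chow and 85.7 to 189 CPM in TM5614. Intestine is the other main source of Apoa4 and Apob. Of 10 enterocyte markers, Lct, Sis, Alpi, Cdx1 and Cdx2 were at 0 in all libraries and 2 passed the filter on low counts. Fabp2, an intestinal fatty acid binding protein, was called higher in TM5614, while Anpep had a lower estimate and was not called. The sum of the 10 was 216 to 265 CPM in Chow and 272 to 339 CPM in TM5614, without overlap. This sum includes Fabp2, whose mean CPM differed between the groups by more than the mean of the sum did. The summed CPM of the other enterocyte markers was therefore not higher in TM5614 on average. Whether the groups overlap without Fabp2 was not tested. The part of these marker differences in the values of the members was not tested. In RNA from whole liver, fewer cells of a type and less RNA per cell cannot be told apart.

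Together the members took 4.53% to 5.15% of the counts in Chow replicates 1, 3, 4 and 5, 7.98% in Chow replicate 2, and 4.35% to 5.38% in TM5614. Levels of different genes were set side by side as FPKM, the authors' counts per length and library. Apoe, the remnant ligand, ranked first with 14314 ± 5579 FPKM in Chow and 11608 ± 1873 FPKM in TM5614 (SD, n = 5 each). Apoa1 and Apoa2, the HDL scaffold, followed with 9163 ± 2719 FPKM in Chow and 9264 ± 862 FPKM in TM5614 and with 8398 ± 4225 FPKM in Chow and 6012 ± 698 FPKM in TM5614. Apoc1, which hinders lipid exchange and receptor binding, had 7819 ± 3337 FPKM in Chow and 6017 ± 1178 FPKM in TM5614. These 4 genes made up 91.5% ± 0.963 of the summed FPKM of the members in Chow and 90.8% ± 0.898 in TM5614 (SD, n = 5 each). Apoc3, an inhibitor of triglyceride clearance, came next with 2116 ± 1099.7 FPKM in Chow and 1529 ± 270.1 FPKM in TM5614. Apob and Apoa5 lay close together at 526 ± 178 FPKM in Chow and 605 ± 106 FPKM in TM5614 and at 501 ± 73.5 FPKM in Chow and 644 ± 49.1 FPKM in TM5614. Apoa4, an apolipoprotein of triglyceride-rich particles and HDL, had 375 ± 153 FPKM in Chow and 420.4 ± 182 FPKM in TM5614. Mttp had 71.5 ± 22.4 FPKM in Chow and 98.4 ± 17.3 FPKM in TM5614, and Apoc2, the activator of lipoprotein lipase, was last with 4.72 ± 1.48 FPKM in Chow and 4.74 ± 1.68 FPKM in TM5614. In Chow, 4 of the 9 neighbouring pairs in this order had ranges that did not overlap: Apoc1 over Apoc3, Apoc3 over Apob, Apoa4 over Mttp and Mttp over Apoc2. Apoe, Apoa1, Apoa2 and Apoc1 each overlapped the next, as did Apob, Apoa5 and Apoa4, although Apoe was above Apoa1 in 10 of 10 libraries and Apoa1 above Apoa2 in 9. With lengths from the annotation in place of the authors' FPKM, Apoa2 ranked first.

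**Figure D1:**
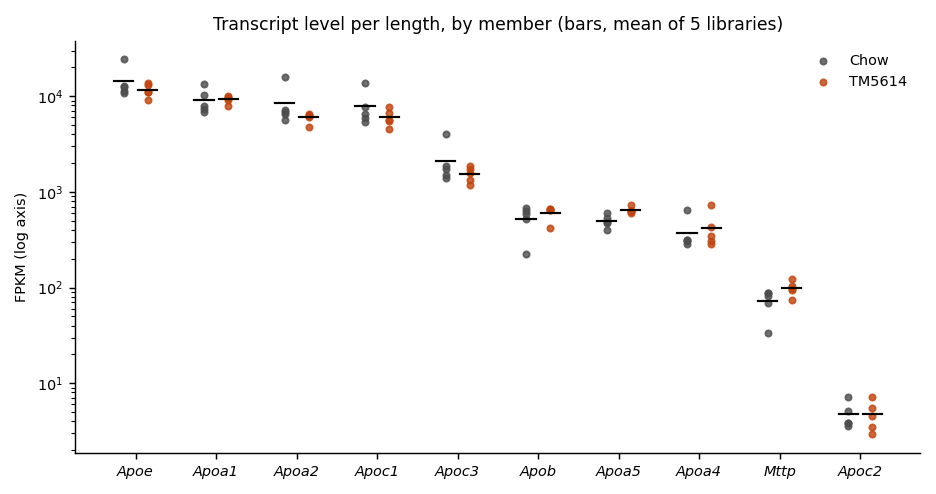
Transcript level of each member in FPKM on a log axis, 1 point per library, Chow in grey and TM5614 in orange, bars at the mean of 5 libraries. Levels run from Apoe, at least 9027 FPKM in every library, to Apoc2, between 2.94 and 7.15 FPKM. The highest point in Apoe, Apoa1, Apoa2, Apoc1 and Apoc3, and the lowest in Apob and Mttp, is Chow replicate 2.

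The level of Apoc2 needs care. Its counts were 19 to 56 per library, while Apoc4, the gene just upstream of it on the same strand, had 3951 to 14272. The annotation holds a readthrough gene of both, Gm44805, that shares 646 of the 813 exon bases of Apoc2 (79.5%), and its row in the files, named Apoc4-apoc2, was at 0 in all 10 libraries. How the authors' counting treated reads that fit several genes is not stated, so Apoc2 is given as uncertain. Apoa4 and Apoa5 share 34.8% to 34.9% and 20.8% of their exon bases with antisense genes, and Mttp 7.4% with Trmt10a on the opposite strand. Whether strand was used in counting is not stated, so reads from a gene and its antisense partner cannot be told apart.

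Chow replicate 2 was the highest of all 10 libraries in 5 members, Apoa1, Apoa2, Apoc1, Apoc3 and Apoe, and the lowest in 2, Apob and Mttp. Against the mean of the other 4 Chow libraries it held 2.43 times the CPM of Apoa2 (longest transcript 518 bases), 2.49 times that of Apoc3 (709 bases) and 2.04 times that of Apoe (1408 bases). It held 0.418 times the CPM of Mttp (3963 bases) and 0.373 times that of Apob (13934 bases). Short members were thus high and long members low in this library, apart from Apoc2 at 0.785 with few counts. Apob and Mttp were also lowest in GC content, at 43.5% and 45.9% against 51.9% to 59.5% in the other members. The parts of length and GC content can therefore not be told apart here. When each library's trend with GC content and length was taken out, these ratios became 1.28 for Apoa2, 1.15 for Apoc3, 1.07 for Apoe, 0.603 for Mttp and 0.711 for Apob. Every member's comparison is therefore given with and without this library where it moves the value.

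**Figure D2:**
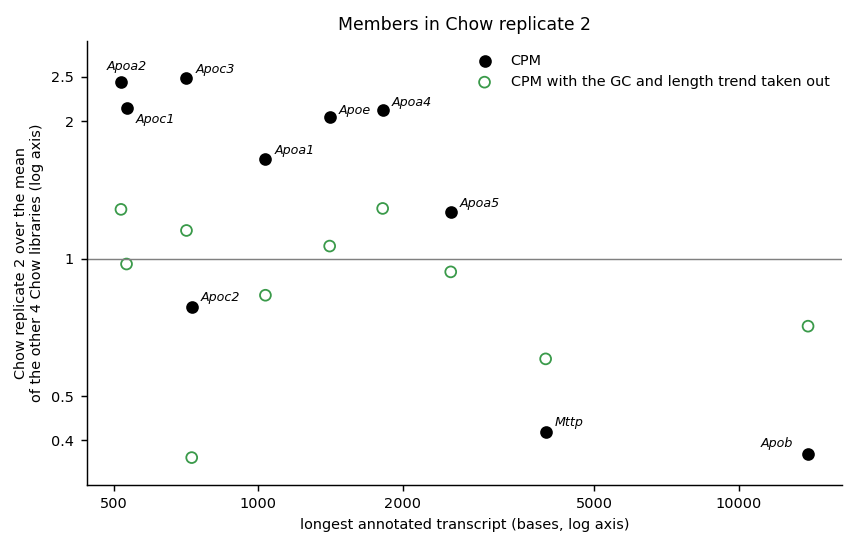
CPM of each member in Chow replicate 2 divided by the mean of the other 4 Chow libraries (log axis), against the length of its longest annotated transcript in bases (log axis). Filled points are the CPM, from 2.49 for Apoc3 to 0.373 for Apob; open points, after the trend with GC content and length was taken out, lie nearer to 1 except for Apoc2.

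Between the groups, 0 of the 10 members passed an adjusted p of 0.05 in edgeR's quasi-likelihood test with Benjamini-Hochberg adjustment over all 11092 genes, of which 499 (4.50%) passed. At an unadjusted p under 0.05 there was 1 member, Apoa5, against 20.4% of all genes. DESeq2 called 1 member, again Apoa5, against 8.11% of all genes, and limma-voom with sample quality weights called the same 1 against 12.5%. In edgeR it was also called without Chow replicate 2 (background 9.24%) and with an offset for GC content and length in all 10 libraries (background 6.97%). CPM of the groups did not overlap in 1 of 10 members, against 8.93% of all genes, a share close to that background. The estimate was higher in TM5614 for 6 members and lower for 4, with a median log2 fold change of 0.013, equal to that of all tested genes (0.013). This split depended on the fit. Without Chow replicate 2 it was 5 and 5, with a median of -0.015 against 0.0045 over all genes, and with the GC content and length offset it was 8 and 2, with a median of 0.21 against -0.0036. The 95% intervals, which are not adjusted for the number of genes, reached 0.26 to 0.63 on either side of an estimate on the log2 scale. A call after adjustment over 11092 genes needed more than an interval without 0. Apoa5, at log2 0.37 with an interval of 0.11 to 0.62, did not pass. The count of 0 therefore does not exclude changes of that size.

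**Figure D3:**
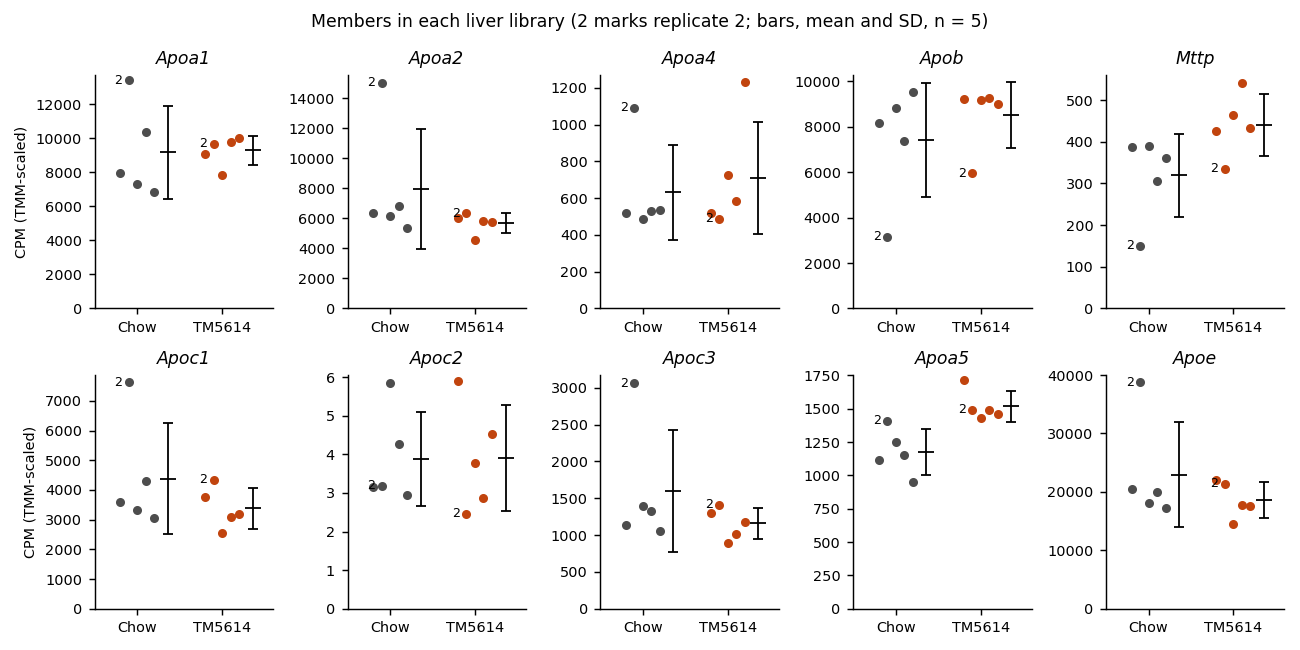
CPM of each member, scaled by library size and TMM, in Chow (grey) and TM5614 (orange), 1 point per library in the order of replicates 1 to 5, with replicate 2 of each group marked and the mean and SD (n = 5) beside the points. Apoa5 is the only member whose groups do not overlap, and Chow replicate 2 sets the spread of the Chow group in most panels.

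Apoa5 encodes apolipoprotein A-V, a scarce plasma protein that promotes the clearance of triglyceride by lipoprotein lipase. It held 1114, 1412, 1252, 1155 and 948 CPM in Chow replicates 1 to 5 and 1716, 1493, 1429, 1488 and 1461 CPM in TM5614 replicates 1 to 5. All 5 TM5614 libraries were above all 5 Chow libraries, by a margin of 1429 against 1412 CPM. The means were 1176 ± 171 CPM in Chow and 1517 ± 114 CPM in TM5614 (SD, n = 5 each), a 1.29-fold difference (log2 0.37, 95% interval 0.11 to 0.62). With an edgeR adjusted p of 0.106 this did not pass the threshold. Its highest Chow value was that of replicate 2. Without that library the fold was 1.35 (log2 0.43, edgeR adjusted p = 0.0150), and with the GC content and length offset it was 1.41 (log2 0.50, edgeR adjusted p = 0.00491); both passed. DESeq2 gave log2 0.36 (adjusted p = 0.0405) on all 10 libraries. The estimate was higher in TM5614 in all 10 fits that left out 1 library, at log2 0.30 to 0.43, and passed in 1 of them. The call for Apoa5 thus varied with 1 Chow library, with the GC content and length offset and with the tool, while its direction did not.

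The core of VLDL assembly is the pair of Apob and Mttp. Mttp held 387, 151, 389, 306 and 362 CPM in Chow replicates 1 to 5 and 426, 336, 464, 542 and 432 CPM in TM5614 replicates 1 to 5. The lowest of all was Chow replicate 2, the highest TM5614 replicate 4, and the groups overlapped through TM5614 replicate 2. The means were 319 ± 99.8 CPM in Chow and 439.8 ± 74.3 CPM in TM5614 (SD, n = 5 each), a 1.38-fold difference (log2 0.46, SE 0.23, 95% interval -0.032 to 0.96, edgeR adjusted p = 0.276). Without Chow replicate 2 the difference shrank to 1.21-fold (log2 0.28, 95% interval 0.0023 to 0.55, edgeR adjusted p = 0.208), and Chow then had 361 ± 38.6 CPM (SD, n = 4). With the GC content and length offset it was log2 0.35 (95% interval 0.011 to 0.70, edgeR adjusted p = 0.212). Mttp thus missed the threshold in all 3 fits. Its estimate was higher in TM5614 in all 10 fits that left out 1 library, at log2 0.28 to 0.54. Apob, whose product is the structural backbone of the particle, held 8181, 3157, 8821, 7360.0 and 9532 CPM in Chow replicates 1 to 5 and 9212, 5951, 9183, 9259 and 9009 CPM in TM5614 replicates 1 to 5. Low values came from replicate 2 of each group, that of TM5614 being the library with muscle transcripts, and the other 8 libraries lay between 7360.0 and 9532 CPM. The difference on the log2 scale was 0.20 (SE 0.25, 95% interval -0.34 to 0.74, edgeR adjusted p = 0.666) with all libraries, 0.0024 (-0.30 to 0.30) without Chow replicate 2 and 0.31 (-0.24 to 0.85) without TM5614 replicate 2.

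Among the HDL apolipoproteins, Apoa1 held 7952, 13390.0, 7309.7, 10348 and 6819 CPM in Chow replicates 1 to 5 and 9094, 9685, 7864, 9773 and 10013 CPM in TM5614 replicates 1 to 5. The groups overlapped, with the highest and the lowest value both in Chow. The means were 9164 ± 2723 CPM in Chow and 9286 ± 864 CPM in TM5614 (SD, n = 5 each), and the difference of Apoa1 on the log2 scale was 0.019 (SE 0.18, 95% interval -0.37 to 0.40, edgeR adjusted p = 0.959). Without Chow replicate 2 it was 0.19 (-0.087 to 0.46). With the GC content and length offset the estimate of Apoa1 was higher, at 0.35 (95% interval 0.10 to 0.59, edgeR adjusted p = 0.0875), still short of the threshold. Apoa2, its partner on HDL, held 6376, 15042, 6167, 6837 and 5349.6 CPM in Chow replicates 1 to 5 and 6053, 6337, 4559.6, 5860.4 and 5742 CPM in TM5614 replicates 1 to 5. Apart from Chow replicate 2, the Chow libraries lay between 5349.6 and 6837 CPM and the TM5614 libraries between 4559.6 and 6337 CPM. The log2 fold change of Apoa2 was -0.48 (-1.03 to 0.072, edgeR adjusted p = 0.310) with all libraries and -0.12 (-0.36 to 0.11, edgeR adjusted p = 0.554) without Chow replicate 2. Apoa4 held 517, 1092, 485, 528 and 535 CPM in Chow replicates 1 to 5 and 521, 488, 726, 584 and 1229.6 CPM in TM5614 replicates 1 to 5. In each group 1 library stood far above the others, Chow replicate 2 and TM5614 replicate 5, and the next highest was TM5614 replicate 3. For Apoa4 the log2 fold change came to 0.17 (SE 0.29, edgeR adjusted p = 0.763). It was 0.45 without Chow replicate 2 and -0.12 without TM5614 replicate 5, so single libraries set its sign.

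Apoc1, Apoc3 and Apoe had lower means in TM5614 with groups that overlapped, and in each the estimate moved towards 0 once Chow replicate 2 was left out. Apoc3, which slows triglyceride clearance, held 1141, 3060.5, 1398, 1329 and 1059 CPM in Chow replicates 1 to 5 and 1301, 1414, 892, 1010.0 and 1176 CPM in TM5614 replicates 1 to 5. The log2 fold change of Apoc3 stood at -0.46 (SE 0.27, 95% interval -1.05 to 0.12, edgeR adjusted p = 0.354), and -0.10 (-0.39 to 0.20) without Chow replicate 2. Apoc1 ranged from 3047 to 7623 CPM in Chow and from 2550.5 to 4348 CPM in TM5614, with a log2 fold change of -0.37 (edgeR adjusted p = 0.402) that became -0.087 without that library. Apoe, the most abundant member, held 20508, 38799, 18171, 20060.4 and 17329 CPM in Chow replicates 1 to 5 and 22059.6, 21417, 14500.0, 17797 and 17663 CPM in TM5614 replicates 1 to 5. Its means were 22973 ± 8943 CPM in Chow and 18687 ± 3090.3 CPM in TM5614 (SD, n = 5 each), and its log2 fold change of -0.30 (-0.77 to 0.18, edgeR adjusted p = 0.457) became -0.033 (-0.31 to 0.24) without Chow replicate 2 and 0.048 with the GC content and length offset, which turned its sign. The sign of Apoc1 turned in the same way, to 0.028. Apoc2 held 2.94 to 5.85 CPM in Chow and 2.47 to 5.89 CPM in TM5614, and the estimate for Apoc2 was log2 0.0078 (SE 0.28, edgeR adjusted p = 0.989). It was -0.064 without Chow replicate 2 and 0.32 with the offset, so the sign of Apoc2 varied between fits.

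**Figure D4:**
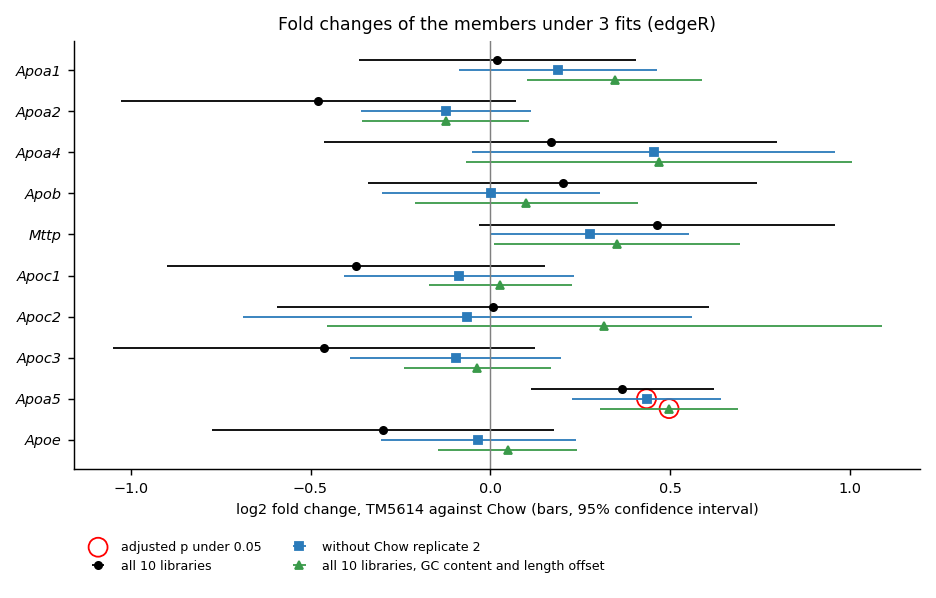
Log2 fold change of each member in TM5614 against Chow with its 95% confidence interval in 3 edgeR fits: all 10 libraries (black), without Chow replicate 2 (blue) and all libraries with a GC content and length offset (green); red rings mark an adjusted p under 0.05. Only Apoa5 is ringed, in the blue and green fits, and there the intervals of Apoa2, Apob, Apoc1, Apoc3 and Apoe are narrower and include 0.

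Members of 1 cluster, or of 1 step of assembly, were also compared within each library as the log2 ratio of their counts, which does not depend on how libraries are scaled against each other. There were 10 pairs, tested by exact permutation (two-sided, all splits of 5 against 5), whose smallest possible p is 0.00794. After Benjamini-Hochberg adjustment over the 10 pairs a single pair at that p reaches 0.0794, and 0 pairs passed 0.05. Apoc3 against Apoa5, an inhibitor and a promoter of triglyceride clearance from the chromosome 9 cluster, gave the 1 ratio whose groups did not overlap. It was 0.33 ± 0.44 in Chow and -0.41 ± 0.23 in TM5614 (SD, n = 5 each), a difference of -0.74 (exact permutation p = 0.00794, adjusted 0.0794). Apoc3 exceeded Apoa5 in counts in all 5 Chow libraries and was below it in all 5 TM5614 libraries. Counts are not scaled by gene length, so this is a shift of the ratio and not a change of rank. In FPKM Apoc3 was above Apoa5 in every library. It had 1399 to 4056 against 403 to 601 FPKM in Chow and 1180 to 1841 against 608 to 731 FPKM in TM5614. Without Chow replicate 2 the difference was -0.54 (exact permutation p = 0.0159, adjusted 0.159), and with the GC content and length trend taken out it was -0.54 (exact permutation p = 0.00794, adjusted 0.0794). The ratio of Apoa1 to Apoc3 was higher in TM5614 by 0.42 (exact permutation p = 0.0476, adjusted 0.159), and that of Apob to Mttp was lower by 0.25, at 4.52 ± 0.14 in Chow and 4.27 ± 0.15 in TM5614 (SD, n = 5 each) (exact permutation p = 0.0317, adjusted 0.159). The other 7 pairs had exact permutation p-values of 0.0794 to 0.730. Without Chow replicate 3, 2 pairs passed: Apoc3 against Apoa5 at -0.78 and Apoa1 against Apoa5 at -0.41 (exact permutation test, adjusted p = 0.0397 each). The ratio of Apoe to Apoc1 had the smallest spread of all, at 2.41 ± 0.12 in Chow and 2.47 ± 0.10 in TM5614 (SD, n = 5 each) with p = 0.381 in the exact permutation test.

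Of the genes that work beside the members, 6 lists held 88 tested genes; 5 of them passed the threshold (edgeR adjusted p under 0.05), all lower in TM5614, against 2.77% of all genes called lower. Among receptors that take up lipoproteins, 0 of 8 were called higher and 1 lower, with a median log2 fold change of -0.21 against 0.013 over all genes. The median was nearer to 0 with the GC content and length offset (-0.093) and without Chow replicate 2 (-0.082). This was Lsr, the lipolysis-stimulated receptor, which fell from 150.1 ± 38.8 to 93.9 ± 5.98 CPM (SD, n = 5 each) (log2 fold change -0.68, SE 0.15, edgeR adjusted p = 0.0280). Its highest TM5614 value, 100.2 CPM, was under its lowest Chow value, 124 CPM. Among factors that control apolipoprotein genes, 0 of 26 were called higher and 2 lower. The median of the 26 was -0.19, which became -0.063 with the offset and -0.098 without Chow replicate 2. Ppargc1b, a coactivator, fell from 20.3 ± 6.18 to 11.5 ± 1.62 CPM (SD, n = 5 each) (log2 fold change -0.83, SE 0.21, edgeR adjusted p = 0.0417). Rxra, the partner of many nuclear receptors on DNA, fell from 595 ± 29.2 to 457 ± 37.2 CPM (SD, n = 5 each) (log2 fold change -0.38, SE 0.094, edgeR adjusted p = 0.0417). The groups did not overlap in either of these genes. With the offset Ppargc1b passed (-0.68, edgeR adjusted p = 0.0275) and Rxra did not (-0.28, edgeR adjusted p = 0.0535), while without Chow replicate 2 Nr2f2 and Nr1d2 were also called, both lower.

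Among partners of VLDL assembly and secretion, 0 of 29 were called higher and 1 lower, with a median of 0.038, close to that of all genes. This was Tm6sf2, an endoplasmic reticulum protein needed to lipidate VLDL, which fell from 39.5 ± 5.20 to 28.8 ± 2.09 CPM (SD, n = 5 each) (log2 fold change -0.46, SE 0.12, edgeR adjusted p = 0.0443); with the GC content and length offset it was -0.26 (edgeR adjusted p = 0.164) and did not pass. Other genes of the list passed only in alternative fits. Pemt, which makes phosphatidylcholine for VLDL, was lower with the offset (log2 -0.37, edgeR adjusted p = 0.00818) and without Chow replicate 2 (log2 -0.41, edgeR adjusted p = 0.0214). The sorting receptor Sort1 was lower with the offset (log2 -0.44, edgeR adjusted p = 0.0452), and the COPII coat gene Sec24d was higher without Chow replicate 2 (log2 0.39, edgeR adjusted p = 0.0339). Among other apolipoproteins, 0 of 12 were called higher and 1 lower. The median of the 12 was -0.22, which became 0.010 with the offset and -0.025 without Chow replicate 2. The gene called lower was Apol7a, of the apolipoprotein L family, which has near-identical relatives and so may share reads with them. Apol7a fell from 151 ± 14.6 to 80.2 ± 11.6 CPM (SD, n = 5 each) (log2 fold change -0.92, SE 0.12, edgeR adjusted p = 0.00153). None of the 9 tested genes of lipases and their control passed (median -0.27, which became -0.057 with the offset and -0.21 without Chow replicate 2). Those of smallest p were Pltp, the phospholipid transfer protein, at 74.1 ± 25.0 CPM in Chow and 46.0 ± 13.8 CPM in TM5614 (SD, n = 5 each) (log2 fold change -0.69, SE 0.26, edgeR adjusted p = 0.165), and Lcat, the enzyme that esterifies cholesterol on HDL (log2 fold change -0.27, SE 0.11, edgeR adjusted p = 0.183). None of the 4 genes of Apob mRNA editing passed either, and the smallest p belonged to Rbm47 (log2 fold change -0.35, SE 0.16, edgeR adjusted p = 0.252) and Syncrip (log2 fold change 0.27, SE 0.14, edgeR adjusted p = 0.286). Rbm47 was called lower with the offset (edgeR adjusted p = 0.0162) and without Chow replicate 2 (edgeR adjusted p = 0.0133), and Saa4, of the other apolipoproteins, with the offset (edgeR adjusted p = 0.0391). Apol7a passed in all 10 fits that left out 1 library. Lsr passed in 4, Ppargc1b in 3, Tm6sf2 in 2 and Rxra in 1, so the count of 5 became 10 without Chow replicate 2, 3 without Chow replicate 3, 2 without Chow replicate 1, and 1 without Chow replicate 4 or any 1 of the TM5614 libraries. All 5 were lower in each of those fits. Without Chow replicate 2 the share of all genes called was also higher, at 9.24% against 4.50% with all libraries.

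**Figure D5:**
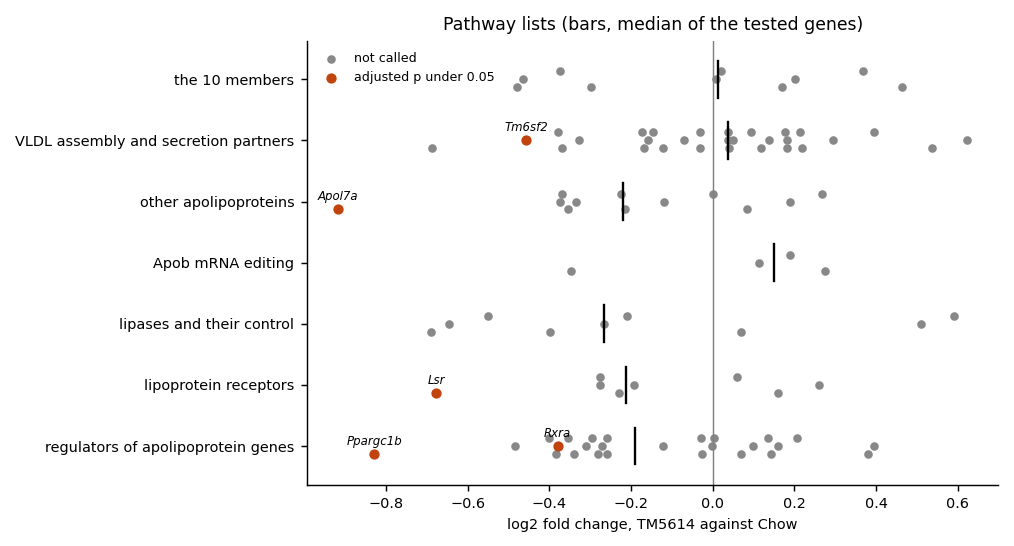
Log2 fold change in TM5614 against Chow of each tested gene of the members and of 6 lists, 1 point per gene, with bars at the median; named orange points passed an edgeR adjusted p of 0.05. The 5 genes that passed all lie to the left of 0, while the members lie on both sides, 6 above and 4 below.

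Apoa5, as the member of smallest p, was compared with the 8597 tested genes of at least 50 counts on average for the likeness of their profiles over the 10 libraries, measured as the mean absolute difference of z-scored log2 CPM. The closest were Cgn (cingulin, a tight junction protein) at 0.284 SD, Nif3l1 at 0.286 SD and Fam20a at 0.292 SD, none of which passed the threshold. Cgn had 25.1 ± 3.62 CPM in Chow and 32.1 ± 2.90 CPM in TM5614 (SD, n = 5 each). Of the other members Apoa1, from the same cluster, came nearest at 0.786 SD (rank 964) and Apoa2 was farthest at 1.15 SD (rank 5157); Apoc2 was below the count minimum. The nearest tested genes around the chromosome 9 cluster were Sik3, a kinase, 4385 bases before it, and Zpr1, 1144 bases after it. Their log2 fold changes were 0.13 (SE 0.15, edgeR adjusted p = 0.638) and 0.0031 (SE 0.15, edgeR adjusted p = 0.992). Around the chromosome 7 cluster Clptm1 had -0.10, Tomm40 had -0.18, and Apoc4, within it, had -0.35. The neighbours of Apob (Atad2b and Ldah), Apoa2 (Tomm40l and Fcer1g) and Mttp (Lamtor3 and Trmt10a) had log2 fold changes of -0.19 to 0.25. None of these 11 neighbours passed the threshold, where the smallest edgeR adjusted p was 0.266 for Ldah.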

How the data were processed

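Hepatic poly(A) RNA of 5 Chow and 5 TM5614 mice was measured. Per the study's methods and the submitters' processing notes, single-end reads were aligned with STAR to mm10 and analysed with DESeq2; HOMER is also named. The annotation, strand setting and tool versions are not given in the sources used here. What the authors deposited were raw counts per gene and FPKM values, which scale counts by gene length and library. FPKM values were used only to compare levels between genes. Regularised log2 values and the authors' own DESeq2 comparison (fold changes and p-values) were also deposited and were not used. Columns were matched to mice by mouse number; the counts of libraries within a group differed beyond sampling noise in every pair (lowest chi-square per degree of freedom 7.50).

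Genes were kept with filterByExpr, scaled with TMM and compared by the two-sided quasi-likelihood F test of edgeR 4.0.16 in R 4.3.3 without a block, with Benjamini-Hochberg adjustment over 11092 genes and a threshold of 0.05. Alternatives used DESeq2 1.42.0 and limma 3.58.1. The GC content and length offset used splines with 5 degrees of freedom each, fitted to each library's deviations from the median library; 96.7% of tested genes had both values. Log2 CPM had a prior count of 2, and ratios had 1 count added. The pipeline was tested on simulated counts. Members, lists and tests were chosen with earlier results of these data known. Named genes were the members, list genes past the threshold (or the 2 of smallest p), the 3 profiles closest to the member of smallest p, and nearest neighbours; Fabp2, Anpep, Ttr and the list genes given as passing only in alternative fits were named after their values were seen. Library totals were 6398335 to 10874955 counts. The intervals are for the difference between groups, and the variation between libraries enters their width. The labels give no batch. Some genes of the pathway lists are not reported here and are left out of their counts and medians.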

Additional observations from a re-analysis of the deposited data

Results flagged for a closer look

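In groups of 5 libraries, the highest or lowest value was flagged where its gap to the other 4 was large against the range. The measures were the members and their share of counts, and 8 of 22 group and measure combinations were flagged. Chance was taken as about 1 in 20, or 1.1 here, and whether this rate holds for values distributed as these are was not tested. Of the 8, 6 were Chow replicate 2, and they are not independent of each other. In that library Apoa2 was at 15042 CPM against 5349.6 to 6837 in the other Chow libraries, Apoa4 at 1092 CPM against 485 to 535, Apoc1 at 7623 CPM against 3047 to 4312, Apoc3 at 3060.5 CPM against 1059 to 1398, and Apoe at 38799 CPM against 17329 to 20508. The members took 7.98% of its counts against 4.53% to 5.15%. It is also the library in which the trend with GC content and length was strongest, and with that trend taken out Apoa2, Apoc1, Apoc3 and Apoe were at 0.973 to 1.28 times the mean of the other Chow libraries. Apoa4 was then at 1.29 times that mean. TM5614 replicate 2 had 5951 CPM of Apob, while the rest of its group had 9009 to 9259 CPM. That library held skeletal muscle transcripts, at 4998 CPM over 12 markers, whose part in the Apob value was not tested. TM5614 replicate 1 had 1716 CPM of Apoa5, and the rest of its group 1429 to 1493 CPM.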

How the results depend on the processing

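The count of members past the threshold was 0 with all 10 libraries in edgeR. It was 1 under DESeq2, under limma-voom with sample quality weights, with the GC content and length offset, with that offset and a replicate block, and with that offset without Chow replicate 2; it was 0 to 1 over the fits that left out 1 library, and the 1 member was Apoa5 each time. It was 0 under RLE or upper-quartile factors, library totals alone, scaling without the members, no filter, a filter of 10 counts in each library, robust dispersion and an adjusted p of 0.01. The count of pathway genes was 5. It was 9 under DESeq2, 15 under limma-voom, 3 with library totals alone, 2 without a filter, 1 at an adjusted p of 0.01, 11 with the offset and a replicate block, 13 with the offset without Chow replicate 2, and 1 to 10 with 1 library left out. The share of all genes called also rose, from 4.50% to 8.11% under DESeq2, 12.5% under limma-voom and 9.24% without Chow replicate 2. A higher pathway count in these fits is thus not by itself a result about these genes. For the fits that gave 11 and 13 pathway genes no share of all genes is given, so those counts cannot be set against a background. The count of ratios was 0, and 0 to 2 with 1 library left out. Signs turned for Apoc1 (0.028 with the offset, 0.026 with the offset and the block, 0.025 with the offset without Chow replicate 2), for Apoe (0.048, 0.047 and 0.064 in the same fits), for Apoc3 (0.0093 in the last), for Apoc2 (-0.065 under limma-voom, -0.0012 with a replicate block) and for the ratio of Apoa1 to Apoa4 (0.15 with group medians). With 1 library left out the log2 fold change ranged from -0.071 to 0.19 for Apoa1, -0.12 to 0.45 for Apoa4 and -0.18 to 0.21 for Apoc2, and the log2 ratio from -0.22 to 0.10 for Apoa1 to Apoa4 and from -0.46 to 0.029 for Apoe to Apoc2. The replicate numbers were not taken as pairs: deviations of same-numbered libraries correlated at 0.032 to 0.32 over genes, with 3 of 10 libraries closest to their own number. With the number as a block, 0 members and 4 pathway genes passed, and Apoa5 was at 0.38 (edgeR adjusted p = 0.112). The cause of these differences was not tested. Depth limits Apoc2 alone among the members, with 19 to 56 counts per library.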

Other observations

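Apoa4 ranged from 488 to 1229.6 CPM within TM5614, and with the trend of GC content and length taken out TM5614 replicate 5 was at 1342 CPM and replicate 3 at 831 CPM, against 459.7 to 633 CPM in the other 3. Fabp2, among the enterocyte markers, rose from 71.7 ± 8.03 to 146 ± 17.0 CPM (SD, n = 5 each) (log2 fold change 1.03, SE 0.12, edgeR adjusted p = 0.000676). Ttr, the transthyretin gene among the hepatocyte markers, had 5928 ± 2045 CPM in Chow and 3869 ± 515 CPM in TM5614 (SD, n = 5 each; edgeR adjusted p = 0.104).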
